A study of Mus musculus with 7 samples.

Results

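The unfolded protein response and the integrated stress response were followed through 10 genes: Atf6, Ern1, Eif2ak3, Atf4, Xbp1, Ddit3, Herpud1, Sdf2l1, Trib3 and Asns. They were selected by gene symbol from the 21861 rows of a single count table, and all 10 were found and passed the filter on low counts. The samples were 7 RNA-seq libraries of retinal pigment epithelium (RPE), the pigmented layer that supports the photoreceptors, from aged mice. Of these, 3 came from mice given an adeno-associated virus (AAV) carrying GFP and 4 from mice given an AAV carrying GSTA4, a glutathione transferase that conjugates lipid aldehydes. All were collected 12 weeks after treatment. Both groups thus came from aged mice given an AAV, and no untreated or young libraries were analysed here. Strain, sex, exact age, vector dose, the promoter of the transgene and the number of animals behind each library are not given in the sources used here. Nothing states that libraries came from separate animals, so p-values measure the spread between these libraries, which may in part be technical.

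Misfolded protein in the endoplasmic reticulum (ER) is sensed by the membrane proteins ATF6, IRE1 (encoded by Ern1) and PERK (encoded by Eif2ak3). Cleaved ATF6, and XBP1 translated from messenger RNA that IRE1 has spliced, raise transcription of ER chaperones and degradation factors, whereas PERK phosphorylates the translation factor eIF2. Phosphorylated eIF2 slows general translation but favours translation of ATF4, which activates genes of amino acid supply and, with prolonged stress, Ddit3 (CHOP) and Trib3. The RPE digests photoreceptor outer segments daily and secretes matrix and growth factors, so its ER load is high. Gene-level counts distinguish neither spliced from unspliced Xbp1 nor phosphorylated from unphosphorylated eIF2, and they do not measure ATF4 protein.

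Total counts ranged from 15329181 to 28998964 per library. Levels are CPM, the depth-normalised count, after trimmed-mean (TMM) scaling, and are listed in replicate order. A count of 3 corresponded to 0.111 to 0.176 CPM, and each of the 10 genes lay above this floor in every library. The human GSTA4 row held 4209, 5239, 45 and 1184 counts in the AAV-GSTA4 libraries and at most 3 in any AAV-GFP library, so the construct was detected in each, least in replicate 3. The d2EGFP reporter row held 99, 3970 and 2361 counts in the AAV-GFP libraries and 163, 64, 7 and 26 in the AAV-GSTA4 libraries, so AAV-GFP replicate 1 was below AAV-GSTA4 replicate 1 for the gene its label names. Without AAV-GFP replicate 1, 0 of the 10 genes passed the adjusted test, and the log2 fold changes of Herpud1 and Asns were 0.88 and -0.89. All 15 RPE markers examined were detected in every library; Rpe65, the retinoid isomerase of the visual cycle, ranged from 1767 to 11831 CPM, whereas Best1, a chloride channel gene of the RPE, stayed at 1.15 to 3.32 CPM. AAV-GFP replicate 3 stood apart, with a mean correlation of 0.838 with the other libraries against 0.911 to 0.926 for each of the others. It also had the lowest RPE marker share (3.34% of counts, against 5.78% to 9.87%) and the highest rod marker share (5.81%, against 0.751% to 2.85%). All 15 rod markers had negative log2 fold changes, whereas 12 of 15 RPE markers had positive ones, with a median of 0.59; the RPE share was 3.34% to 7.22% with AAV-GFP and 5.78% to 9.87% with AAV-GSTA4. For AAV-GFP replicate 3, the library that stood apart, olfactory and vomeronasal receptor genes made up 826 CPM without TMM scaling. On the same scale every other library lay between 28.8 and 117 CPM. Lens fibre markers took 9.11% of counts in AAV-GSTA4 replicate 2 and 0.347% to 2.16% elsewhere. The part of these differences in the results was not tested, and in bulk tissue fewer cells of a type cannot be told apart from less RNA per cell.

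No gene of the panel passed the test between the vectors. Adjusted over all 15075 genes tested, 0 of the 10 and 0% of all genes reached the adjusted threshold of 0.05 with edgeR (quasi-likelihood F-test), and the smallest adjusted p among the 10 was 0.395. DESeq2 called 167 genes and limma-voom 0 at that threshold, with 0 of the 10 in either; 1794 genes had an unadjusted p under 0.05 in edgeR. At an unadjusted p under 0.05, 1 of the 10 was higher in AAV-GSTA4 and 0 were lower, against 5.27% and 6.63% of all genes. The groups did not overlap for the same number, 1 higher and 0 lower, against 6.44% and 5.61% of all genes. That gene was Herpud1 in both counts. Log2 fold changes were positive for 5 members and negative for the other 5, with a median of 0.08 beside -0.07 over all genes; 5 lay above the median of all genes, with TMM as with library totals. The use of library totals moved that median by -0.30, which lowers the log2 fold changes given with that scaling throughout. The members' counts were thus close to the background of the experiment.

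**Figure D1:**
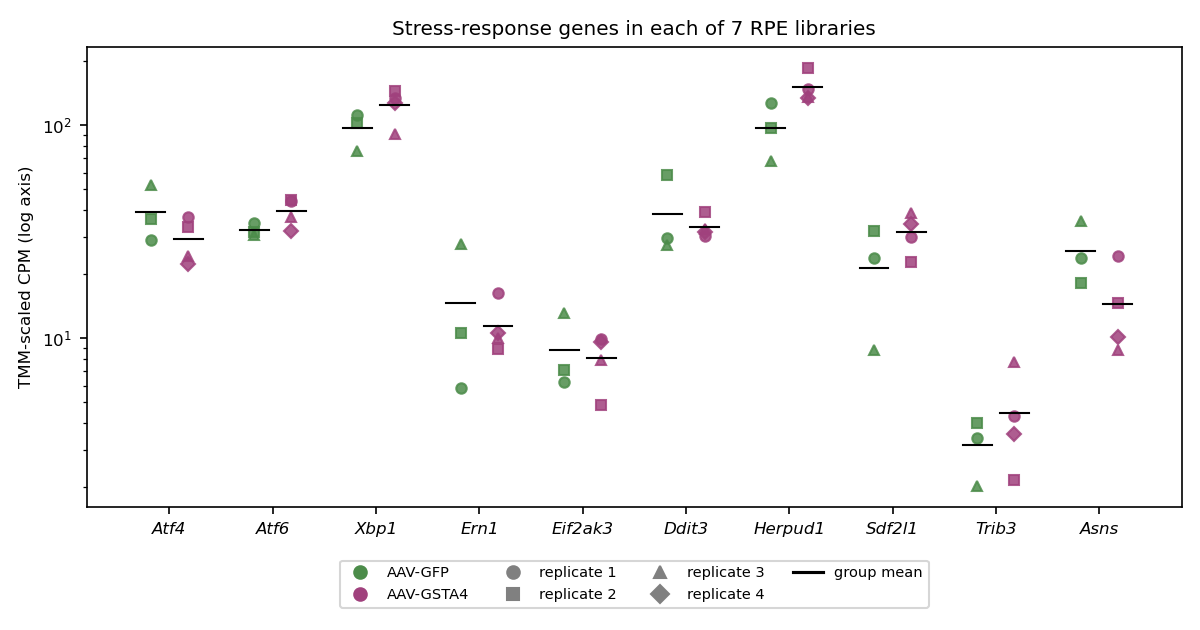
TMM-scaled CPM (log axis) of the 10 genes in each library; colour gives the vector, marker shape the replicate number and the black bar the group mean. Only Herpud1 has all 4 AAV-GSTA4 libraries above all 3 AAV-GFP libraries, and the green triangle, AAV-GFP replicate 3, is the lowest or highest point of all 10 genes.

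Among the 3 sensors, Atf6 was the steadiest gene of the panel. Atf6 (chr1:170704674-170867771, minus strand, GENCODE M21 on GRCm38) encodes the ER-anchored factor that is cut in the Golgi to release its transcription factor domain. It stood at 34.8, 31.6 and 30.4 CPM with AAV-GFP and at 43.9, 44.8, 37.1 and 32.1 CPM with AAV-GSTA4. The AAV-GSTA4 replicates 1, 2 and 3 lay above all controls, and replicate 4 lay within the control range. The means were 32.3 CPM ± 2.26 (SD, n = 3) and 39.5 CPM ± 6.01 (SD, n = 4), and the highest library held only 1.47 times the lowest. The fitted difference was 0.29 ± 0.21 (SE) on the log2 scale (adjusted p = 0.592, edgeR); with library totals in place of TMM it was -0.003.

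Ern1, the gene of the kinase and endoribonuclease IRE1 (chr11:106394650-106487852, minus strand), varied most among the AAV-GFP libraries. Its CPM values there were 5.83, 10.6 and 27.8. In AAV-GSTA4 they were 16.3, 8.88, 9.99 and 10.6. The control libraries thus enclosed every AAV-GSTA4 library, and their coefficient of variation was 78.4% against 28.9% in AAV-GSTA4. The log2 fold change of -0.37 ± 0.49 (SE; adjusted p = 0.790, edgeR) had a 95% interval from -1.46 to 0.73. Without AAV-GFP replicate 3 its sign turned, to 0.47.

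Eif2ak3 (chr6:70844515-70905245, plus strand), the gene of PERK, had 6.25, 7.11 and 13.2 CPM with AAV-GFP and 9.95, 4.85, 7.93 and 9.63 CPM with AAV-GSTA4. Here too AAV-GFP replicate 3 was the highest library. The difference, a log2 fold change of -0.13 ± 0.40 (SE; adjusted p = 0.921, edgeR), was smaller than the spread of replicates, and without that library it was 0.28.

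The transcription factor genes downstream of the sensors were Atf4, Xbp1 and Ddit3. Atf4 (chr15:80255184-80257541, plus strand) is the effector of the integrated stress response. Its levels were 28.99, 36.3 and 52.3 CPM with AAV-GFP and 37.2, 33.3, 24.4 and 22.2 CPM with AAV-GSTA4. Replicates 3 and 4 of AAV-GSTA4 were below every control, whereas replicates 1 and 2 fell among them. On the log2 scale the difference was -0.42 ± 0.28 (SE; adjusted p = 0.560, edgeR). It stayed negative in all 17 alternatives, from -0.77 with library totals to -0.15 without AAV-GFP replicate 3.

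Xbp1 (chr11:5520659-5525893, plus strand) carried the second highest level per length of the 10 genes. The libraries held 112, 103 and 75.9 CPM with AAV-GFP and 135, 145, 91.3 and 127 CPM with AAV-GSTA4. All AAV-GSTA4 libraries except replicate 3 exceeded the controls. For Xbp1 the log2 fold change was 0.36 ± 0.24 (SE; adjusted p = 0.561, edgeR), with a 95% interval from -0.18 to 0.90; it was 0.10 with library totals and 0.22 without AAV-GFP replicate 3.

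Ddit3 (chr10:127290774-127296288, plus strand), which encodes the pro-apoptotic factor CHOP, gave no difference beyond the spread. It was at 29.6, 58.5 and 27.4 CPM with AAV-GFP and at 30.1, 39.3, 32.7 and 31.6 CPM with AAV-GSTA4. AAV-GFP replicate 2 was the highest library, and the 4 AAV-GSTA4 libraries were close together, with a coefficient of variation of 12.1% against 45.0% in AAV-GFP. The difference in spread was not tested. Its log2 fold change was -0.20 ± 0.29 (SE; adjusted p = 0.804, edgeR), and it was 0.23 without AAV-GFP replicate 2, -0.36 without AAV-GFP replicate 1 and -0.40 without AAV-GFP replicate 3. The table lists Ddit3 on 2 rows, the other of which was at 0 in all libraries, and how reads on overlapping gene models were assigned is not stated.

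Herpud1 and Sdf2l1 are ER quality-control genes that the ATF6 and XBP1 branches are known to induce. Herpud1 (chr8:94386438-94395377, plus strand) encodes an ER membrane protein of the ubiquitin ligase complex that clears misfolded proteins, and it had the highest level per length of the panel, 64.9 CPM per kb ± 10.3 (SD, n = 4) in AAV-GSTA4 and 41.9 ± 12.8 (SD, n = 3) in AAV-GFP. The 4 AAV-GSTA4 libraries held 148, 186, 136 and 135 CPM. The AAV-GFP libraries held 128, 96.9 and 68.3 CPM. Every AAV-GSTA4 library was above every control, though the gap between the nearest libraries was narrow. The log2 fold change of 0.63 ± 0.26 (SE), or 1.55-fold, had a 95% interval from 0.05 to 1.22 and an adjusted p of 0.395 in edgeR's test.

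The direction for Herpud1 was positive in all 17 alternatives, from 0.38 to 0.88 on the log2 scale, with adjusted p-values from 0.168 to 0.865. Its unadjusted p of 0.0366 in edgeR's test stayed under 0.05 in 10 of the 17 alternatives, with the lowest, 0.0114 (edgeR), without AAV-GFP replicate 1. In edgeR's test it was 0.0905 without AAV-GFP replicate 2, 0.0728 without AAV-GFP replicate 3 and 0.0557 without AAV-GSTA4 replicate 1. It was 0.0778 without AAV-GSTA4 replicate 2 and 0.0983 with library totals. With replicate numbers as a block it was 0.0740 by title number and 0.111 by library number. With library totals the groups overlapped, at 126 CPM in AAV-GFP replicate 1 and 118 CPM in AAV-GSTA4 replicate 3. Libraries were also compared within the classes set by Y-linked counts, which were high in AAV-GFP replicate 1 and AAV-GSTA4 replicates 3 and 4 and near 0 in the others. The difference in mean log2 CPM of Herpud1 was 0.08 in the first class and 1.03 in the second, with 1 against 2 and 2 against 2 libraries.

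Because Herpud1 was the member nearest to a call, its promoter is shown beside those of Asns, the member next to it by p-value, and of Hspa5 and Canx. Hspa5 and Canx are chaperone genes described below in which a match was found. No match was found for Pdia3, which is described with them. The sequences are from RefSeq (GRCm38.p6) and run 5′ to 3′ on the gene's strand, with motif matches in capitals:
Herpud1 (chr8:94386297-94386407, plus strand): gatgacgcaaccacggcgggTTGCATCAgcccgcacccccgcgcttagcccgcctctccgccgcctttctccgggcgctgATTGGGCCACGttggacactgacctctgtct
Asns (chr6:7693210-7693252, minus strand): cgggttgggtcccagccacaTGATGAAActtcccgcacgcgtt
Hspa5 (chr2:34772005-34772063, plus strand): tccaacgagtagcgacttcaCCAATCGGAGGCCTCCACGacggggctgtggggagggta
Canx (chr11:50325780-50325838, minus strand): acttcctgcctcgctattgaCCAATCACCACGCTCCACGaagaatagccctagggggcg

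The capitals in Herpud1 mark a C/EBP-ATF element (TTGCATCA), the kind of site that ATF4 can bind, from -112 to -105 relative to the annotated start. They also mark an ER stress response element of type II (ATTGG, any 1 base, CCACG) from -52 to -42. In Asns they mark the core TGATGAAA of a nutrient-sensing response element, from -23 to -16. In Hspa5 and Canx they mark the ER stress response element (CCAAT, any 9 bases, CCACG), whose second part it shares with type II. Windows of 250 bases before to 50 after the start were searched on both strands for these and for TGACGTGG, the unfolded protein response element. Entries were found for 9 of the 10 genes, Atf6 being the exception. Of 32851 promoters, 0.895% held the C/EBP-ATF element, 0.0365% the type II element, 1.02% the nutrient-sensing core, 0.119% the ER stress response element and 0.676% the unfolded protein response element. The 3 matches in Herpud1 and Asns were the only ones among the 9 members searched. A match describes letters and does not show binding.

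Sdf2l1 (chr16:17130138-17132383, minus strand) encodes a luminal ER protein that works with the chaperone BiP. It was at 23.8, 31.8 and 8.84 CPM with AAV-GFP and at 30.05, 22.7, 39.0 and 34.6 CPM with AAV-GSTA4. AAV-GFP replicate 3 was far below all others, and the remaining 6 libraries interleaved. The log2 fold change of 0.56 ± 0.40 (SE; adjusted p = 0.592, edgeR) was 0.18 without that library and 0.96 without AAV-GFP replicate 2.

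Trib3 and Asns are targets of ATF4. Asns (chr6:7675169-7693254, minus strand), the asparagine synthetase gene whose promoter match is printed above, had the largest difference of the panel in size. It was at 23.7, 18.2 and 35.6 CPM with AAV-GFP. Under AAV-GSTA4 it was at 24.3, 14.7, 8.82 and 10.1 CPM. Replicates 2, 3 and 4 of AAV-GSTA4 lay below all controls, and replicate 1 lay among them. The means were 25.8 CPM ± 8.89 (SD, n = 3) and 14.5 CPM ± 6.998 (SD, n = 4). Their log2 ratio in the fit was -0.84 ± 0.39 (SE), with a 95% interval from -1.71 to 0.04 and an adjusted p of 0.433 in edgeR's test. It was negative in all 17 alternatives, from -1.18 to -0.53, the latter without AAV-GFP replicate 3. The unadjusted p of Asns was 0.0588 in edgeR's test and under 0.05 in 7 of the 17 alternatives. The lowest was 0.0086 (edgeR), without AAV-GSTA4 replicate 1.

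Trib3 (chr2:152337422-152344032, minus strand), a pseudokinase gene that CHOP and ATF4 induce, was scarce. Its counts were 73, 104 and 42 with AAV-GFP and 82, 45, 132 and 96 with AAV-GSTA4. On the CPM scale these were 3.40, 4.02 and 2.02, and 4.32, 2.16, 7.76 and 3.54. AAV-GSTA4 replicate 3 was the highest library and replicate 2 of that group was near the bottom, so the groups overlapped widely. For Trib3 the log2 fold change was 0.49 ± 0.54 (SE; adjusted p = 0.736, edgeR), and it was 0.09 without AAV-GSTA4 replicate 3 and 0.25 without AAV-GFP replicate 3.

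Both ATF4 targets are also set side by side within libraries, where scaling cancels. The ratio of Trib3 to Asns counts was 0.143, 0.221 and 0.0567 with AAV-GFP and 0.178, 0.147, 0.880 and 0.350 with AAV-GSTA4. AAV-GSTA4 replicates 3 and 4 were the highest and AAV-GFP replicate 3 the lowest. Replicate 3 of AAV-GSTA4, which combined the most Trib3 with the least Asns, was the AAV-GSTA4 library with the fewest human GSTA4 counts, 45.

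**Figure D2:**
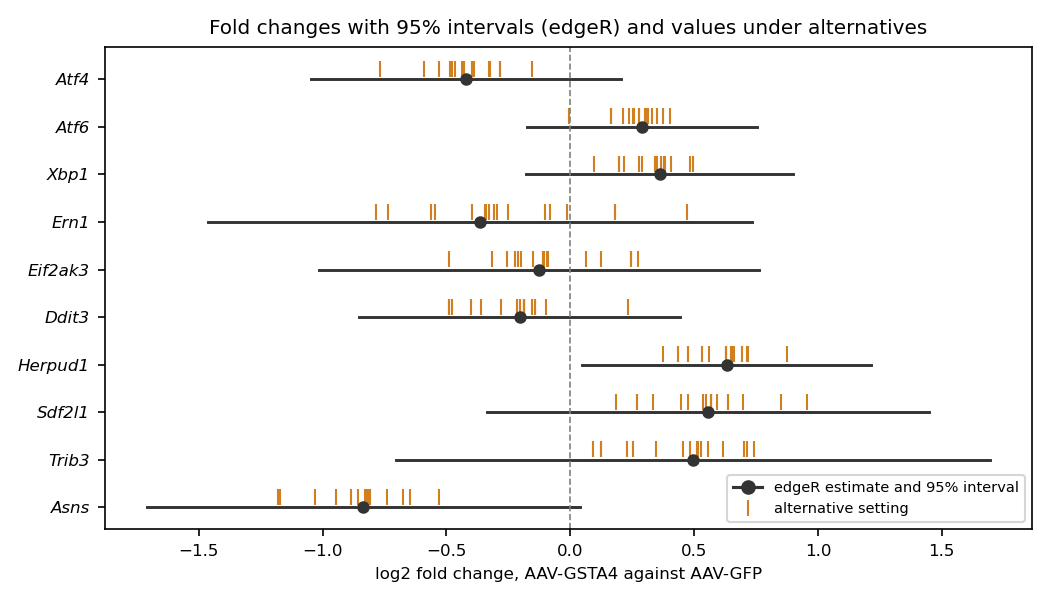
Log2 fold changes of the 10 genes, AAV-GSTA4 against AAV-GFP: dots and lines are edgeR estimates with 95% intervals, and orange ticks are the values under the 17 alternatives. The interval of Herpud1 begins just above 0 at 0.05 and that of Asns ends just above 0 at 0.04, while the ticks of Atf6, Ern1, Eif2ak3 and Ddit3 lie on both sides of 0.

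Per kb of merged exon the mean over the 7 libraries was 55.0 CPM for Herpud1, 34.7 for Xbp1, 24.6 for Sdf2l1, 20.8 for Ddit3 and 14.2 for Atf4. Lower levels per kb were seen for Asns (7.07), Atf6 (3.94), Trib3 (1.83), Ern1 (1.57) and Eif2ak3 (1.395). The ER quality-control genes and the transcription factors thus took the upper places, and Trib3, Ern1 and Eif2ak3 lay close together at the bottom. Exon lengths came from GENCODE M21, which may not be the annotation used for counting.

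AAV-GFP replicate 3 was the lowest or the highest of the 7 libraries for all 10 genes. It was highest for Atf4, Ern1, Eif2ak3 and Asns and lowest for Atf6, Xbp1, Ddit3, Herpud1, Sdf2l1 and Trib3. Over all genes tested it held the extreme for 61.6%. The deviations from the gene's mean log2 CPM ran from 1.28 for Ern1 to -1.50 for Sdf2l1 in this library. There Eif2ak3, Atf4 and the ATF4 target Asns were all at their highest, with deviations of 0.71, 0.69 and 1.03, but Trib3, another ATF4 target, was at its lowest (-0.81). Atf6, Xbp1, Herpud1 and Sdf2l1 were all at their lowest, whereas Ern1, whose product splices the Xbp1 messenger RNA, was at its highest. Without this library, 7 of the 10 log2 fold changes were positive, with a median of 0.23 beside 0.01 over all genes, and 0 of the 10 had an unadjusted p under 0.05 in edgeR's test.

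**Figure D3:**
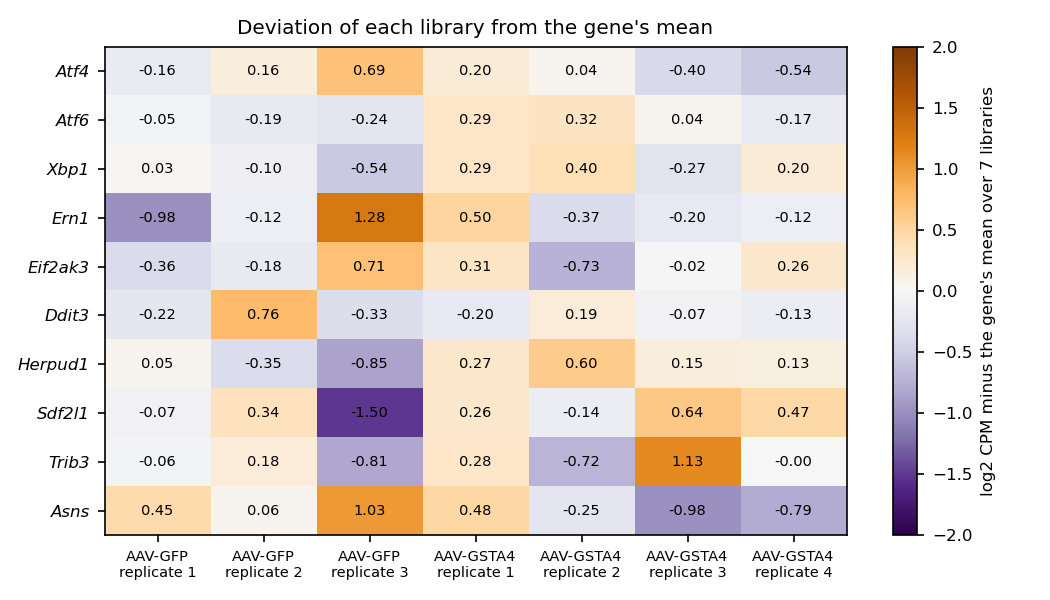
Log2 CPM of each gene (rows) in each library (columns) minus the gene's mean over the 7 libraries; orange is above the mean and purple below. The column of AAV-GFP replicate 3 holds the highest and the lowest value of the panel, 1.28 for Ern1 and -1.50 for Sdf2l1.

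The rest of the pathway was read through 5 lists of 100 genes, of which 97 were tested. Of these 97, 0 passed an adjusted p of 0.05 in edgeR's test, and their smallest adjusted p was 0.363; limma-voom with robust variances, added after seeing the data, called 1, a chaperone-list gene. At an unadjusted p under 0.05, 13 of the 97 (13.4%) differed, 10 higher and 3 lower, beside 11.9% of all genes, of which 5.27% were higher and 6.63% lower. Their log2 fold changes were positive for 71 and negative for 26. Their median was 0.23, beside -0.07 over all genes, of which 6720 of 15075 were positive. With library totals 42 of the 97 were positive, but 76 lay above the median of all genes, against 77 with TMM. The distance from the median of all genes was 0.31 under both scalings. It was 0.21 without AAV-GFP replicate 3.

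Most ER chaperones and foldases had positive log2 fold changes, 19 of the 20 tested, with a median of 0.35 and 0 past the adjusted test. With TMM and with library totals alike, 19 lay above the median of all genes, though only 12 were positive with library totals. The list's median lay 0.43 above that of all genes, and 0.23 above it without AAV-GFP replicate 3, where 16 were positive. Canx, the lectin chaperone calnexin, was at 729, 725 and 407 CPM with AAV-GFP and at 718, 890, 1276 and 938 CPM with AAV-GSTA4 (log2 fold change 0.62 ± 0.32 SE, adjusted p = 0.467, edgeR). AAV-GSTA4 replicate 1 lay just below the upper controls. Hspa5, which encodes BiP, the chaperone that holds the sensors inactive, was at 645, 612 and 378 CPM in AAV-GFP and at 595, 675, 855 and 803 CPM in AAV-GSTA4. Its groups overlapped, with a log2 fold change of 0.43 ± 0.28 (SE; adjusted p = 0.560, edgeR). Pdia3, a disulfide isomerase, was at 463, 459 and 262 CPM in AAV-GFP and at 480, 521, 708 and 623 CPM in AAV-GSTA4. Its groups did not overlap with TMM scaling but did with library totals, and its log2 fold change was 0.56 ± 0.29 (SE; adjusted p = 0.467, edgeR). AAV-GFP replicate 3 was the lowest library for all 3 of these chaperones, and without it the log2 fold changes of Canx, Hspa5 and Pdia3 were 0.40, 0.22 and 0.34. AAV-GSTA4 replicate 3, with only 45 human GSTA4 counts and the highest RPE marker share (9.87%), was their highest library. Without AAV-GSTA4 replicate 3 the same log2 fold changes were 0.46, 0.35 and 0.47. RPE markers, 12 of 15 positive with a median of 0.59, had the same lowest and highest libraries when summed. Singly, Best1, Tyrp1, Dct, Pmel and Slc16a8 were highest in other libraries, and Pmel was lowest in AAV-GSTA4 replicate 3, at 157 CPM. The part of RPE markers in this pattern was not tested.

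Genes of ER-associated degradation, to which Herpud1 belongs, had a median of 0.34, with 15 of 17 positive and 0 past the adjusted test. The same number, 15, lay above the median of all genes with either scaling, though only 9 were positive with library totals. Without AAV-GFP replicate 3, 15 were positive, and the list's median lay 0.28 above that of all genes in place of 0.42. Vcp, the ATPase that extracts proteins from the membrane, was at 319, 345 and 336 CPM in AAV-GFP and at 486, 427, 518 and 467 CPM with AAV-GSTA4. The groups were apart with TMM scaling and overlapped with library totals, with a log2 fold change of 0.51 ± 0.22 (SE; adjusted p = 0.402, edgeR). Os9, a lectin that delivers misfolded glycoproteins, was at 148, 115 and 105 CPM and at 188, 144, 239 and 216 CPM (log2 fold change 0.68 ± 0.25 SE, adjusted p = 0.374, edgeR). The Os9 groups overlapped because AAV-GSTA4 replicate 2 lay just below AAV-GFP replicate 1. Selenos, a selenoprotein of the same machinery, was at 143, 138 and 52.5 CPM and at 139, 170, 202 and 184 CPM (log2 fold change 0.64 ± 0.34 SE, adjusted p = 0.481, edgeR), with a log2 fold change of 0.30 without AAV-GFP replicate 3. Vcp, Os9 and Selenos were all highest in AAV-GSTA4 replicate 3, without which their log2 fold changes were 0.48, 0.59 and 0.57.

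Targets of ATF4 and CHOP other than Trib3 and Asns were divided in sign. Of 36 tested, 19 were positive and 17 negative, with a median of 0.03 and 0 past the adjusted test. With either scaling 22 lay above the median of all genes, though only 12 were positive with library totals. Without AAV-GFP replicate 3, 24 of 37 were positive, with a median of 0.20, and without AAV-GSTA4 replicate 2, 16 of 35, with a median of -0.07. Phgdh, the first enzyme of serine synthesis, was at 547, 434 and 246 CPM in AAV-GFP and at 672, 562, 875 and 710 CPM in AAV-GSTA4, with no overlap under TMM scaling (log2 fold change 0.79 ± 0.32 SE, adjusted p = 0.393, edgeR). Slc3a2, the heavy chain of amino acid exchangers, was at 149, 186 and 170 CPM and at 213, 193, 266 and 221 CPM, again without overlap (log2 fold change 0.41 ± 0.22 SE, adjusted p = 0.478, edgeR). Both overlapped with library totals. Both were also highest in AAV-GSTA4 replicate 3, without which their log2 fold changes were 0.68 and 0.32. These values stand opposite in sign to those of Asns and Atf4, whose log2 fold changes were -0.84 and -0.42. Nupr1, a stress-induced chromatin factor, was at 178, 193 and 58.1 CPM and at 116, 591, 47.3 and 176 CPM. Its high value in AAV-GSTA4 replicate 2 was in the library with the highest lens marker share, 9.11%, and without that library its log2 fold change was -0.33 in place of 0.70; it was 0.34 without AAV-GFP replicate 3 and 1.06 without AAV-GSTA4 replicate 3.

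**Figure D4:**
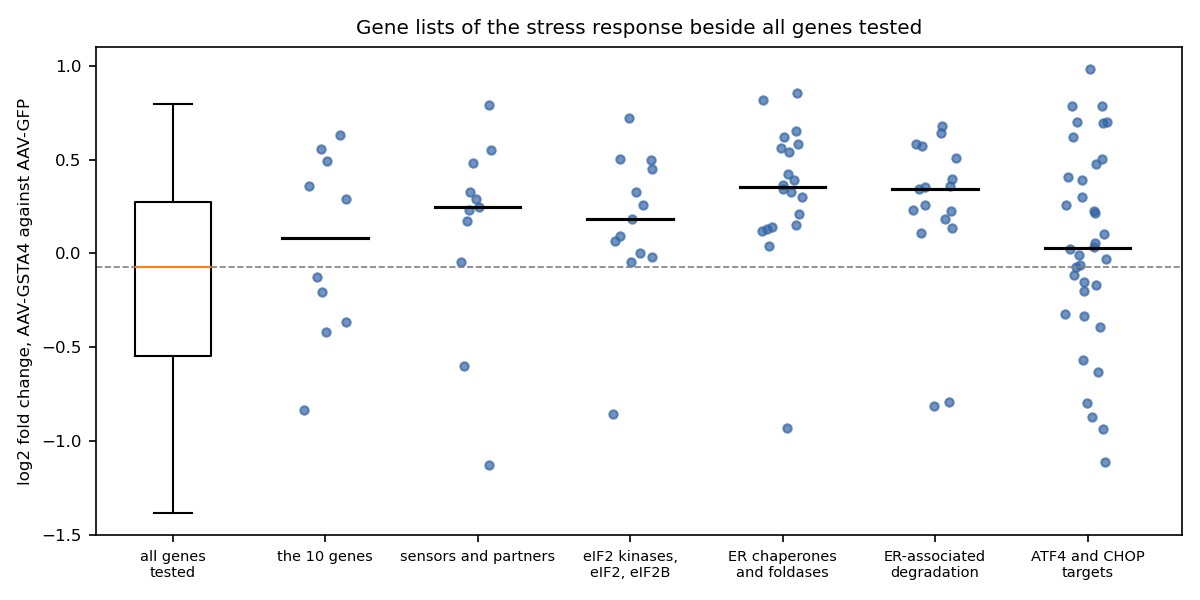
Log2 fold changes, AAV-GSTA4 against AAV-GFP, of the 10 genes and of the 5 pathway lists (dots, with the list's median as a bar) beside all 15075 genes tested (box: quartiles, whiskers: 5th to 95th percentile; dashed line: their median, -0.07). The medians of the chaperone and degradation lists, 0.35 and 0.34, lie above that of the ATF4 and CHOP targets, 0.03, and no dot passed the adjusted test.

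The translation arm and the partners of the sensors also had 0 genes past the adjusted test in edgeR. Among eIF2 kinases, eIF2, its exchange factor and its phosphatase, 10 of 13 log2 fold changes were positive, with a median of 0.19. Of the 13, 12 lay above the median of all genes, or 11 with library totals, where only 5 were positive. Without AAV-GSTA4 replicate 2 there were 7 positive, with a median of 0.02, and limma-voom gave 7 with a median of 0.03. Ppp1r15a (GADD34), the ATF4-induced phosphatase subunit that ends the eIF2 block, was at 28.5, 59.1 and 47.3 CPM in AAV-GFP and at 59.4, 64.3, 49.0 and 53.1 CPM in AAV-GSTA4 (log2 fold change 0.33 ± 0.26 SE, adjusted p = 0.636, edgeR). For Ppp1r15a the value was 0.09 without AAV-GFP replicate 1, 0.58 without AAV-GFP replicate 2 and 0.01 with library totals. Eif2s1, the subunit that is phosphorylated, had means of 97.3 CPM ± 46.2 (SD, n = 3) and 138 CPM ± 80.5 (SD, n = 4); its log2 fold change of 0.50 was 0.02 without AAV-GSTA4 replicate 2, 0.22 without AAV-GFP replicate 3 and 0.91 without AAV-GFP replicate 1. Eif2s2, another subunit, had means of 120 CPM ± 56.3 (SD, n = 3) and 121 CPM ± 16.5 (SD, n = 4), with a log2 fold change of 0.004 ± 0.32 (SE). Among partners of the sensors, 8 of 11 were positive, with a median of 0.25. With either scaling 9 lay above the median of all genes, though only 4 were positive with library totals. Tmbim6, an ER membrane protein that restrains IRE1, was at 424, 452 and 444 CPM in AAV-GFP and at 898, 369, 957 and 823 CPM in AAV-GSTA4. Its AAV-GSTA4 replicate 2 lay below all controls while the other AAV-GSTA4 libraries lay far above them (log2 fold change 0.79 ± 0.34 SE, adjusted p = 0.407, edgeR). Rtcb, the ligase that joins the Xbp1 exons, had a log2 fold change of 0.23 ± 0.26 (SE), and Creb3 one of 0.29 ± 0.21 (SE); with library totals these were -0.03 and -0.004. Rtcb was at 0.05 without AAV-GFP replicate 3 and 0.09 without AAV-GSTA4 replicate 2.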

How the data were processed

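The authors deposited raw read counts per gene for the 7 libraries, and no column lacked a sample. The submitters' processing notes name STAR 2.7.1a and featureCounts 1.6.2 and list both mouse (GRCm38) and human builds without a role; annotation, strand setting and multi-mapping rule are not given in the sources used here. Per the labels' protocols, polyadenylated RNA was amplified as full-length cDNA with no mention of molecular identifiers, so floors cover counting error only.

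Columns were matched through the library names. edgeR 4.0.16 (R 4.3.3) fitted all 7 libraries with the vector as the only factor, TMM scaling, the default expression filter and robust quasi-likelihood F-tests, adjusted by Benjamini-Hochberg over all genes tested. Each standard error is the size of the log2 fold change over the root of its F statistic, and 95% intervals use the fitted degrees of freedom. The script was tested on simulated data with the fitted mean levels and spread. Of the genes changed 2-fold there, 4% passed the adjusted threshold of 0.05 in edgeR's test, and of those changed 4-fold, 60.6%. A gene that did not pass is therefore not shown to be unchanged. All pairs of libraries differed by more than sampling noise.

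The members and gene lists were chosen with earlier results of these data known. Named genes are the 10 members and, in each list, the 3 with the highest mean CPM. Of 24 symbols on several rows, only the row with most counts was used under that symbol. Alternatives were other scalings and filters, DESeq2 1.42.0, limma-voom (limma 3.58.1), replicate blocks, a factor for Y-linked counts and each library left out; limma-voom with robust variances, and the list counts under each alternative, were added after seeing the data.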

Additional observations from a re-analysis of the deposited data

Results flagged for a closer look

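Among 25 genes examined for an isolated library within the 4 of AAV-GSTA4, 2 had one, where chance gives about 1 in 20. Creb3, an ER-anchored transcription factor related to Atf6, was at 71.8 CPM in AAV-GSTA4 replicate 1 and at 95.7 to 99.9 CPM in the other 3, so that 0.852 of the range was empty. Eif2s1 was at 257 CPM in AAV-GSTA4 replicate 2 and at 85.1 to 107 CPM in the other 3, and 0.874 of the range was empty. The latter is the library in which lens fibre markers took 9.11% of counts, and their part in the value was not tested.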

How the results depend on the processing

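The count of members past the adjusted threshold was 0 in all 17 alternatives. Over all genes it was 167 with DESeq2, 146 with limma-voom and robust variances (0 without the robust option), 1 with either replicate block and 0 to 1 across the fits that left out 1 library, and 0 in the others; the cause was not tested. Members with an unadjusted p under 0.05 numbered 2 without the expression filter, with both limma-voom fits and with the Y-linked factor, 0 with either replicate block, and 0 to 1 across the leave-one-out fits. Same-numbered libraries did not deviate together: correlations were -0.10, -0.002 and 0.02 by title number and -0.10, 0.008 and -0.14 by library number, so the numbers were not taken to pair them.

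Log2 fold changes that turned sign were those of Atf6 (-0.0032), Rtcb (-0.026), Creb3 (-0.0042) and Eif2s2 (-0.23) with library totals. With limma-voom, with or without robust variances, they were Ern1 (0.18), Eif2ak3 (0.25), Eif2s2 (-0.10) and Nupr1 (-0.36). With the replicate block by library number they were Eif2ak3 (0.12) and Nupr1 (-0.38), and with the Y-linked factor Eif2s2 (-0.017). Over the leave-one-out fits the values ran for Ddit3 from -0.40 to 0.23, Ern1 from -0.74 to 0.47, Eif2ak3 from -0.32 to 0.28, Eif2s2 from -0.30 to 0.38 and Nupr1 from -0.33 to 1.06. No cause was tested. Of the 97 pathway genes, 13.4% had an unadjusted p under 0.05 beside 11.9% of all genes. Over the genes each fit tested, the shares were 18.2% beside 11.7% with DESeq2 and 14.4% beside 12% with median-of-ratios scaling. They were 14% beside 10% without the expression filter and 15.4% beside 14.1% with at least 10 counts in every library. The shares were 22.7% beside 21.8% with limma-voom and 8.25% beside 15.9% with library totals. With the replicate blocks by title and library number they were 5.15% beside 5.63% and 7.22% beside 7.62%. They were 3.06% beside 10.5% without AAV-GFP replicate 2, 3.09% beside 6.88% without AAV-GSTA4 replicate 3 and 7.37% beside 8.47% without AAV-GSTA4 replicate 4. The scarcest of the 10 genes, Trib3, had 42 to 132 counts per library.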

Other observations

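Some pathway genes outside the naming rule were singled out after their values were seen, and their values under the alternatives are not given here. The n is 3 for AAV-GFP and 4 for AAV-GSTA4. Sil1, the exchange factor that lets BiP release its clients, was at a mean of 51.9 CPM (SD 10.6) with AAV-GFP against 93.8 CPM (SD 20.04) with AAV-GSTA4, or 0.85 ± 0.24 (SE) on the log2 scale with an adjusted p of 0.363 in edgeR's test. Txndc5, a disulfide isomerase, went the other way from the rest of its list, with means of 34.6 CPM (SD 3.78) and 18.1 CPM (SD 5.53) in the same order and a log2 difference of -0.93 ± 0.27 (SE) at the same adjusted p. It was the 1 negative gene among the 20 chaperones and foldases, and its groups did not overlap under TMM scaling. Herpud2, the paralog of Herpud1, was also opposite in sign to it, with means of 22.4 CPM (SD 5.49) and 12.9 CPM (SD 5.04) in the same order and a log2 difference of -0.79 ± 0.33 (SE; adjusted p = 0.401, edgeR).

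Eif2ak1, the eIF2 kinase that responds to haem shortage and mitochondrial stress, had means of 41.5 CPM (SD 3.13) and 58.8 CPM (SD 5.67). Its groups did not overlap under TMM scaling, and its log2 fold change was 0.50 ± 0.19 (SE, adjusted p = 0.375, edgeR). Eif2b5, of the same list, was opposite in sign. It had means of 44.3 CPM (SD 11.3) with AAV-GFP and 24.5 CPM (SD 10.8) with AAV-GSTA4. The groups of Eif2b5 overlapped, and its log2 fold change was -0.86 ± 0.34 (SE, adjusted p = 0.384, edgeR). Tnfrsf10b, a death receptor gene that CHOP can induce, varied little in AAV-GSTA4, at 20.8 CPM (SD 0.636). Its mean in AAV-GFP was 10.5 CPM (SD 6.49), and its log2 fold change was 0.98 ± 0.42 (SE, adjusted p = 0.406, edgeR). The log2 fold change of Ddit3 itself was -0.20.

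Promoter matches were also counted in the 5 pathway lists, of which 78 genes had an entry in the RefSeq table. The ER stress response element was found in 10 of the 78 genes, among them Hspa5, Canx, Hsp90b1, Calr and Pdia6, beside 39 of all 32851 promoters. These promoters belonged to 27025 genes, the pathway genes included, so genes are set beside promoters here. Vcp held the unfolded protein response element and Nupr1 the C/EBP-ATF element.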
